A study of Homo sapiens with 4 samples.

Results

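The genes described are 10 targets of the transcription factor NF-kB and inflammatory mediators: the cytokines LIF, IL32, IL6 and TNFSF15, the chemokines CXCL1 and CXCL8, the feedback inhibitors NFKBIA and TNFAIP3, and the enzymes SOD2 and PTGS2. They were taken by symbol from a table of 46427 genes, and all 10 were found. RNA came from H1299, a human non-small cell lung cancer line, and from an H1299 derivative in which DDX21, a nucleolar RNA helicase, had been knocked out (DDX21 KO). Both lines were sequenced without treatment and with a transfected mimic of the microRNA miR-34a, which gives 4 groups of 1 library each. Nothing says that the libraries came from separate cultures. The mimic was used at 25 nM and the transfected cells were harvested after 48 h. The non-treated cells are not said to have received the transfection reagent or a control RNA, so miR-34a and transfection cannot be told apart. The sources used here do not say whether the DDX21 KO line is 1 clone.

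NF-kB dimers are held in the cytoplasm by IkB proteins until a kinase complex, IKK, marks the IkB protein for degradation. The freed dimers bind kappaB sites in DNA and switch on genes of inflammation and survival, among them those of their own inhibitors, which limits the response. Many of the mRNAs made in this way are short-lived because their 3' untranslated regions (3' UTRs) carry AU-rich elements. In lung cancer cells such cytokines can be secreted without any immune cell being present.

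The libraries held between 26868358 and 36263145 estimated counts. Levels are given as CPM, counts relative to the library total after scaling by TMM (trimmed mean of M values), and a floor of 3 counts corresponded to 0.0840 to 0.111 CPM. Ratios are log2 ratios with a 95% counting interval in brackets, which covers counting error only. With 1 library per group there is no replicate check, and every difference below lies between libraries. Higher or lower is called at a ratio of at least 2-fold with an interval that excludes no change, among genes with at least 50 counts in at least 1 library of the comparison. DDX21 itself was at 722 CPM in non-treated and 588 CPM in miR-34a H1299, against 206 CPM and 182 CPM in the DDX21 KO libraries. Of the markers of other cell types, the summed level was at most 0.336 CPM for 5 leukocyte genes, 0.336 CPM for 3 endothelial genes and 0.784 CPM for 4 fibroblast genes in any library. Vimentin (VIM) and the keratins KRT8 and KRT18 were abundant, and NKX2-1 had 0 counts in 3 libraries and 8 in the other. Without treatment KRT8 was at 181 CPM in H1299 and 402 CPM in DDX21 KO cells, and the part of such line differences in the results was not tested. In bulk RNA, fewer cells making a transcript and less of it per cell cannot be told apart.

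The mature miR-34a and its matches in the members are shown first, because a miRNA pairs with mRNAs through its seed. RefSeq (GRCh38.p14) places the mature miRNA, 22 bases long, at chr1:9151735-9151756 on the minus strand. Capitals mark its seed, bases 2 to 8.
hsa-miR-34a-5p: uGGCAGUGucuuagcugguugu
Matches were searched in the longest 3' UTR of each gene in GENCODE 29, as CACTGCC or ACTGCCA, which together form the 8-base match CACTGCCA. Of the 10 members, TNFSF15, NFKBIA, TNFAIP3 and SOD2 held at least 1 match, against 20.7% of 19545 genes. An 8-base match was present in TNFSF15, TNFAIP3 and SOD2, against 5.22% of all genes. Among genes with at least 50 counts in a library these shares were 23.7% and 5.94%. The 3' UTRs of TNFSF15, NFKBIA, TNFAIP3 and SOD2 had 5817, 502, 3156 and 13436 bases, beside a median of 1061 over all genes. The shares were not adjusted for length. Capitals mark the matching bases on GRCh38, written on the strand of the mRNA, and TNFAIP3 held 2 matches. The TNFSF15 window lies at chr9:114789144-114789171 (minus strand), NFKBIA at chr14:35401884-35401911 (minus), TNFAIP3 at chr6:137878848-137878875 and chr6:137880165-137880192 (plus), and SOD2 at chr6:159671020-159671047 (minus).
TNFSF15: ttaactagatcaactaCACTGCCAactt
NFKBIA: ttatatccacactgcaCACTGCCtggcc
TNFAIP3, first: ttctgttcagtgagacCACTGCCAtgaa
TNFAIP3, second: caccatgtttgaaggatACTGCCAgaag
SOD2: tcccctcccctagcctCACTGCCAcctt
The SOD2 match began at base 11462 of a 3' UTR of 13436 bases. A match is a description and not a shown site of action.

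The DNA at the starts of the genes is shown next, since kappaB sites are what NF-kB binds. A promoter window of 250 bases before to 50 bases after the start was held by RefSeq (GRCh38.p14) for 9 members, LIF being the one not matched. Both strands were searched for the kappaB consensus and for GGAATTTCC, which overlaps the consensus in part. One or the other was found in 6 of the 9 windows, against 11% of 27305 promoters, and in 14 of 25 windows of other NF-kB targets. In all 6 the first match began between 99 and 67 bases before the start. The 60-base windows around the matches follow, 5′ to 3′ on the strand of the gene, with the matches in capitals. They lie at chr16:3065279-3065338 (IL32, plus strand), chr4:73869289-73869348 (CXCL1, plus), chr4:73740452-73740511 (CXCL8, plus), chr7:22727102-22727161 (IL6, plus), chr14:35404796-35404855 (NFKBIA, minus) and chr6:137867173-137867232 (TNFAIP3, plus).
IL32: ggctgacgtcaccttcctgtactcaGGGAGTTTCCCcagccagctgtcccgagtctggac
CXCL1: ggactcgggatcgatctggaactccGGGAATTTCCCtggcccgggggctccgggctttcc
CXCL8: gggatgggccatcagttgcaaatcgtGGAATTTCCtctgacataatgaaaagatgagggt
IL6: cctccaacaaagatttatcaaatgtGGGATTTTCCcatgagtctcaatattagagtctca
NFKBIA: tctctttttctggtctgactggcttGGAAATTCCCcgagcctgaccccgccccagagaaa
TNFAIP3: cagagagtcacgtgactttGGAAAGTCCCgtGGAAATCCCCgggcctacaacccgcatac
The AP-1 element TGANTCA was found in the CXCL8 and TNFSF15 windows, against 7.76% of promoters, and TATAAA on the gene's strand in CXCL8 and PTGS2, against 7.71%. The SOD2 window held none of these motifs. It covers the start of NM_001322819, which lies inside the SOD2 gene as RefSeq draws it and is not the most upstream one. NM_001322819 took 23.6% to 33.0% of the SOD2 counts of a library. NM_000636 and NM_001322814, among others, start further downstream and took between 17.0% and 24.4% each. Their start was not searched. For TNFSF15 the window covers the start of the shorter transcript, NM_001204344.

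**Figure D1:**
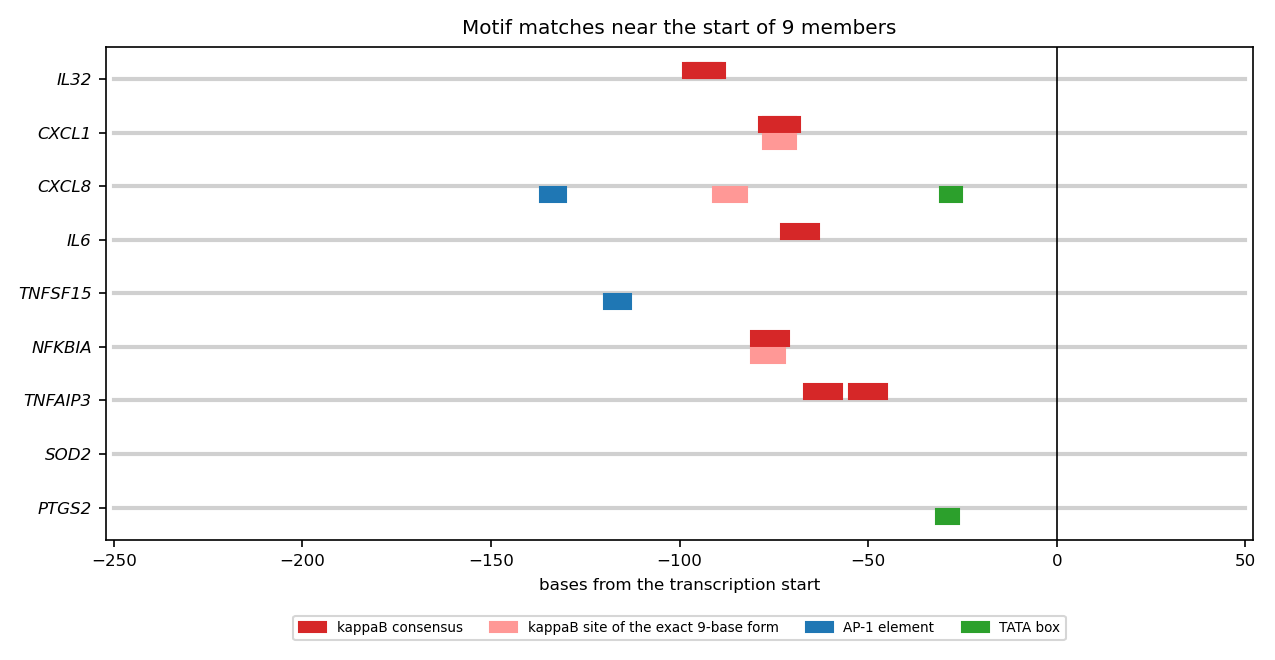
Position of motif matches, in bases from the transcription start (vertical line), for the 9 members with a promoter window; each grey line is 1 gene's window from 250 bases before to 50 bases after the start. The kappaB matches of IL32, CXCL1, CXCL8, IL6, NFKBIA and TNFAIP3 lie within 99 bases of the start, and the TNFSF15, SOD2 and PTGS2 windows show none. The starts of SOD2 further downstream were not searched.

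Compared per length, the members covered a wide range of levels. SOD2, the mitochondrial superoxide dismutase, was the most abundant in each library at 25.0 to 39.3 FPKM (counts scaled by transcript length and library total). NFKBIA at 12.5 to 22.6 FPKM and IL32 at 6.64 to 24.1 FPKM followed. LIF (0.686 to 5.77 FPKM) and TNFAIP3 (1.41 to 2.52 FPKM) were lower, and CXCL1 stood at 0.590 to 1.57 FPKM. PTGS2 did not exceed 0.344 FPKM, TNFSF15 0.650 FPKM and CXCL8 0.397 FPKM, and IL6 was at 0 throughout. The order of neighbours is not firm: IL32 lay below NFKBIA in both non-treated libraries and above it in both transfected libraries, and no replicate spread is available.

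**Figure D2:**
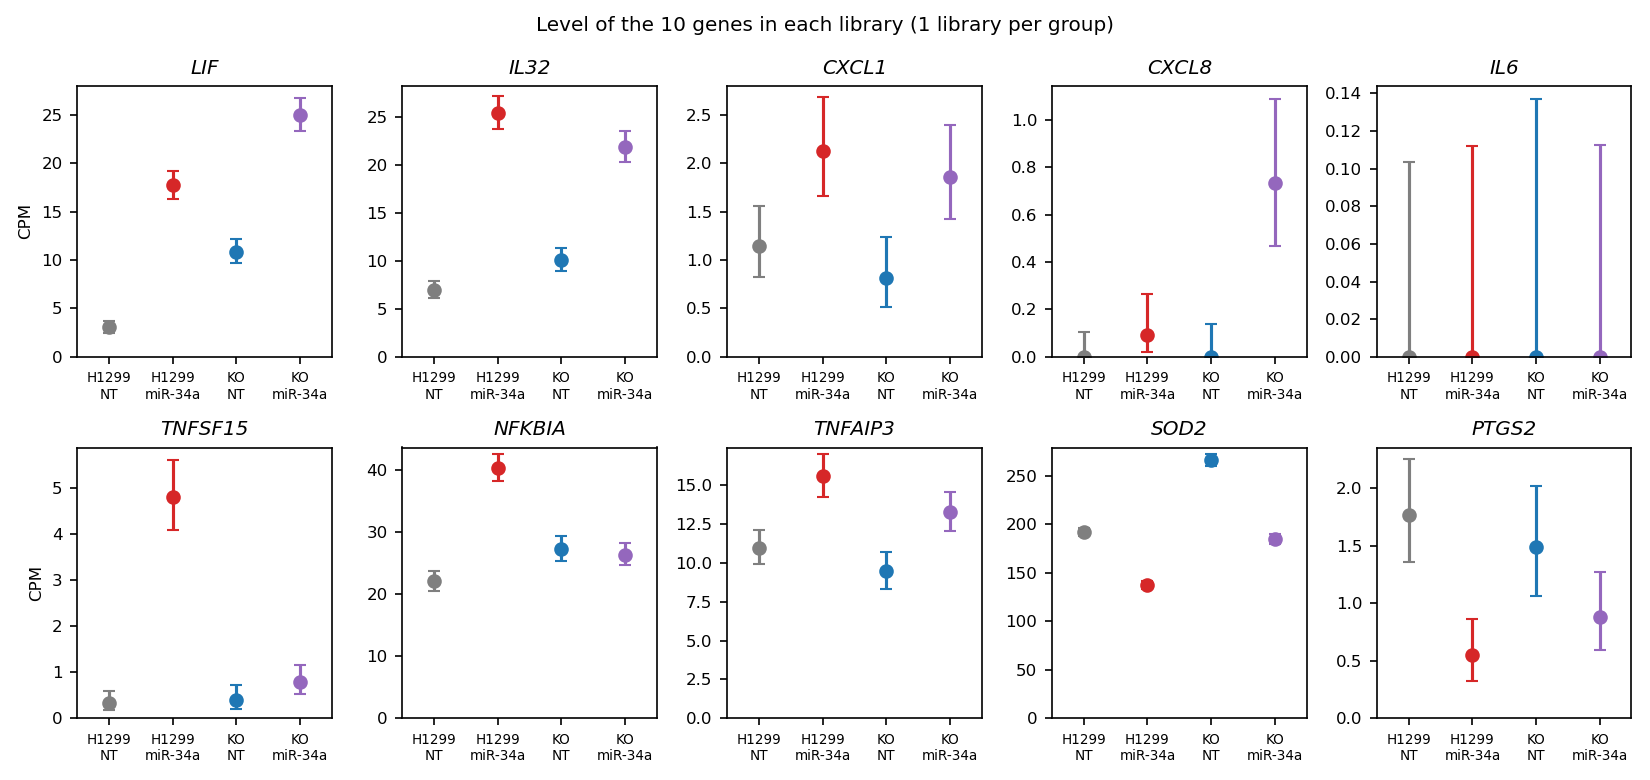
CPM of each member in each of the 4 libraries (NT, non-treated; KO, DDX21 KO), with exact 95% Poisson intervals that cover counting error only and an axis from 0 in each panel. LIF and IL32 are higher in both transfected libraries, TNFSF15 stands out in miR-34a H1299 at 4.80 CPM, and SOD2 is lower in both transfected libraries.

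With miR-34a in H1299, the cytokine genes LIF, IL32 and TNFSF15 were higher by more than 2-fold and PTGS2 was lower. Of the 8 members that entered this comparison, 3 were called higher, where 3.62% of all 13597 genes were, and 1 lower, where 4.27% were. The median log2 ratio of the 8 was 0.86, beside 0.00 for all genes. CXCL8 and IL6 did not reach 50 counts in either library. In DDX21 KO cells LIF, IL32 and CXCL1 were called higher, 3 of 6 entering members against 1.62% of 13382 genes, and 0 lower, against 1.69%. The median of these 6 ratios was 0.80, beside 0.00 for all genes. CXCL8, IL6, TNFSF15 and PTGS2 were below the minimum there. The members and lists were chosen with earlier results of these data known.

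**Figure D3:**
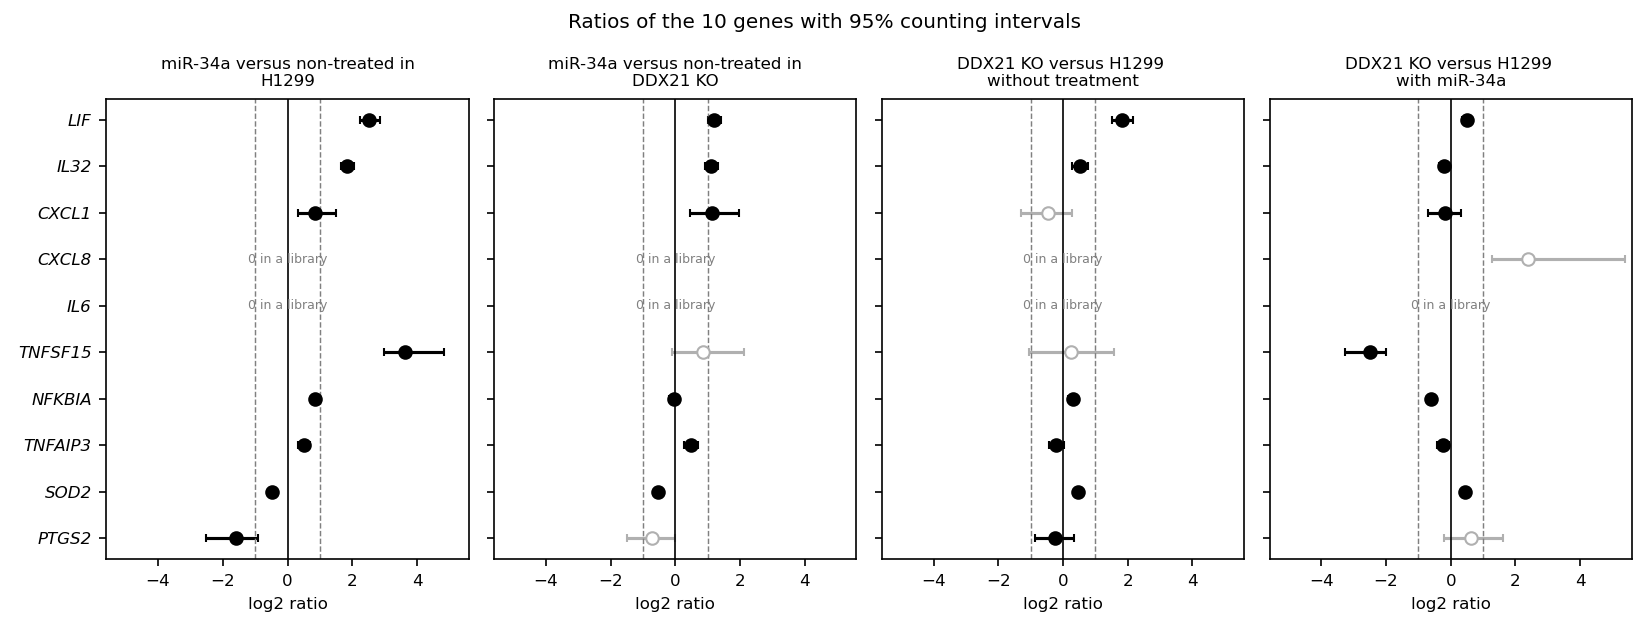
Log2 ratio of each member in the 4 comparisons of pairs of libraries, with 95% counting intervals; filled points entered the comparison, open grey points were below 50 counts in both libraries, genes with 0 counts in a library are marked, and dashed lines mark 2-fold. LIF, IL32 and TNFSF15 lie beyond 2-fold for miR-34a in H1299, and LIF also for DDX21 KO against H1299 without treatment.

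Among the cytokines, LIF (gene 3976, chr22:30240453-30246759 on GRCh38.p14) encodes a cytokine of the IL-6 family that signals through LIFR and IL6ST to STAT3. In H1299 it stood at 3.05 CPM non-treated and 17.7 CPM with miR-34a, and in DDX21 KO cells at 10.9 CPM and 25.0 CPM. It was thus lowest in the non-treated parental library, with every other library above it, and the 4 Poisson intervals did not overlap. In H1299 the miR-34a ratio was 2.52 (2.24 to 2.85), above 99.8% of the genes tested. For DDX21 KO cells it was 1.20 (1.01 to 1.40), above 99.1%. Between the lines (DDX21 KO to H1299) the ratio was 1.81 (1.51 to 2.16) without treatment. Among the transfected libraries it was 0.50 (0.34 to 0.65). LIF was the only member called higher in DDX21 KO against H1299 without treatment, 1 of 6, where 3.79% of 13600 genes were. The LIF counts were assigned to 4 transcripts, of which NM_002309 took 106, 327, 110 and 805 counts in the order above. XM_024452239 took 183 counts in non-treated DDX21 KO cells and 0 in the other libraries, so the split between LIF transcripts is an estimate that varied between libraries. The antisense genes LIF-AS1 and LIF-AS2 overlap LIF in RefSeq, and LIF-AS1 was listed at 0 counts in all 4 libraries.

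IL32 (gene 9235, chr16:3065403-3069530) encodes a cytokine without close relatives that induces other inflammatory mediators. It stood at 7.0 and 25.4 CPM in non-treated and miR-34a H1299, and at 10.1 and 21.8 CPM in the same order in DDX21 KO cells. Both transfected libraries were above both non-treated ones. In H1299 the miR-34a ratio was 1.85 (1.65 to 2.07), while DDX21 KO cells had 1.11 (0.91 to 1.33). Between the lines IL32 differed by 0.52 (0.27 to 0.78) without and -0.21 (-0.36 to -0.07) with miR-34a, so the direction turned. All 19 listed IL32 transcripts received counts, and the largest single assignment in non-treated H1299, NM_004221, held 25.2% of the reads of the gene.

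TNFSF15 (gene 9966, chr9:114784635-114806039) encodes a ligand of the TNF family that activates NF-kB through TNFRSF25. In H1299 it had 12 counts (0.336 CPM) non-treated and 158 (4.80 CPM) with miR-34a, and in DDX21 KO cells 11 (0.408 CPM) and 26 (0.793 CPM). The miR-34a H1299 library alone was high. The ratio in H1299 was 3.62 (2.99 to 4.82), above 99.9% of the genes tested, and 2.39 on the scale of log2(FPKM + 0.1). In DDX21 KO cells it was 0.86 (-0.11 to 2.12) on counts below the minimum. With miR-34a, DDX21 KO cells had a ratio to H1299 of -2.51 (-3.26 to -1.99), the only member called lower there (1 of 7, where 2.96% of 13621 genes were). The shorter transcript NM_001204344 took 12, 100, 3 and 0 counts in the order above, and NM_005118, which starts further upstream, took 0, 58, 8 and 26. This gene carries the 8-base match CACTGCCA shown above.

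IL6, a cytokine of the acute phase response that signals through the same IL6ST receptor chain as LIF, had 0 counts in all 4 libraries. The exact 95% Poisson interval of this 0 count reached 0.103 to 0.137 CPM, depending on the library, so IL6 was not detected at this depth. Its promoter holds a kappaB match, as do those of IL32 and CXCL1.

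The chemokine genes CXCL1 and CXCL8 lie in a cluster on chromosome 4 together with CXCL2, CXCL3, CXCL5 and CXCL6, and their products attract neutrophils through CXCR1 and CXCR2. CXCL1 (gene 2919, chr4:73869393-73871308) had 41 and 70 counts in non-treated and miR-34a H1299 and 22 and 61 in the same order in DDX21 KO cells. That is 1.15, 2.13, 0.817 and 1.86 CPM, and both transfected libraries were the higher ones. In H1299 the ratio was 0.86 (0.31 to 1.48), which is within 2-fold, while DDX21 KO cells had 1.13 (0.46 to 1.96). The intervals of both ratios overlap widely, and their difference was 0.27 (-0.60 to 1.14). CXCL8 (gene 3576, chr4:73740569-73743716) had 0 counts in both non-treated libraries, 3 in miR-34a H1299 and 24 in miR-34a DDX21 KO cells. With the non-treated count set to the floor of 3, CXCL8 was 6.57-fold higher in miR-34a than in non-treated DDX21 KO cells. This takes the 24 counts as exact. The 95% counting interval of the log2 ratio began at 2.31, and the counts were below the minimum of 50. Its ratio of miR-34a DDX21 KO to miR-34a H1299 was 2.38 (1.29 to 5.38), on 24 and 3 counts and below the minimum of 50. Within the cluster CXCL2 was the most abundant, at 53.2 and 56.7 CPM in H1299 and 37.1 and 44.1 CPM in DDX21 KO cells. CXCL3 had 6 to 21 counts, and CXCL5 and CXCL6 had 0 in all 4 libraries. The full CXCL1 and CXCL8 promoters are given for comparison, at chr4:73869143-73869442 and chr4:73740319-73740618 on the plus strand, with kappaB matches in capitals.
CXCL1 promoter: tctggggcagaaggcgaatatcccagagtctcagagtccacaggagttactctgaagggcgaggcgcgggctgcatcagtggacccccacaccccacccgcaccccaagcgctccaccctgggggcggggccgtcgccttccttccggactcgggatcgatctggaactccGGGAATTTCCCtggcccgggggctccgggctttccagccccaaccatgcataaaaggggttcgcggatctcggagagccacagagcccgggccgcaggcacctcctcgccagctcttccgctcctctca
CXCL8 promoter: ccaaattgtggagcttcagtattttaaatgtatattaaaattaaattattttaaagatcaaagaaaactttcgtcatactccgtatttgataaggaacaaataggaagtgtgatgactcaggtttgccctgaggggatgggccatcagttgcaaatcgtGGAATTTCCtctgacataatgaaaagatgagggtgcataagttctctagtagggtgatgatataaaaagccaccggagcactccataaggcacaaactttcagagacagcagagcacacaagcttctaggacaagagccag
Both hold GGAATTTCC, which 0.472% of all promoters do. The promoters of CXCL2, CXCL3, CXCL5 and CXCL6 in the same cluster hold it too. The CXCL8 promoter also holds the AP-1 element.

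The feedback inhibitors were measured with more counts. NFKBIA (gene 4792, chr14:35401513-35404749) encodes IkB-alpha, which binds NF-kB and returns it to the cytoplasm. It stood at 22.1 CPM in non-treated and 40.2 CPM in miR-34a H1299, against 27.3 CPM and 26.3 CPM in DDX21 KO cells. Only the miR-34a H1299 library was high, and both DDX21 KO libraries lay between the H1299 libraries. In H1299 the miR-34a ratio was 0.86 (0.74 to 1.00), within 2-fold, while DDX21 KO cells had -0.05 (-0.20 to 0.09). TNFAIP3 (gene 7128, chr6:137866349-137883312) encodes a ubiquitin-editing enzyme that shuts off signalling upstream of IKK. It stood at 11 and 15.6 CPM in H1299 and at 9.47 and 13.3 CPM in DDX21 KO cells. Both transfected libraries were above the non-treated ones, by 0.51 (0.31 to 0.70), or 0.79 in FPKM, and 0.48 (0.26 to 0.72). TNFAIP3 reads were assigned to 8 of 9 transcripts, and the leading transcript differed between libraries. NM_006290, for one, took 142 counts in miR-34a H1299 and 0 elsewhere. Of the 4 members that hold a seed match, NFKBIA, TNFAIP3 and TNFSF15 had ratios above 0 in H1299, and SOD2 had a ratio below 0 in both lines.

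The enzymes went the other way. SOD2 (gene 6648, chr6:159669069-159762281), which turns mitochondrial superoxide into hydrogen peroxide, stood at 192 CPM in non-treated and 138 CPM in miR-34a H1299. In DDX21 KO cells it stood at 266 and 185 CPM. Each transfected library was below its non-treated counterpart, by -0.48 (-0.53 to -0.42) and -0.53 (-0.57 to -0.48), and each DDX21 KO library was above its H1299 counterpart, by 0.47 (0.42 to 0.52) and 0.42 (0.37 to 0.48). All 4 of these ratios were within 2-fold, and in FPKM the ratios between the lines were smaller, at 0.19 and 0.12. SOD2 carries the 8-base match shown above. In RefSeq SOD2 overlaps the protein-coding genes WTAP, with 4017 to 5900 counts per library, and ACAT2, with 3272 to 5220. Counting is not stated to have used strand, so SOD2 values are uncertain to that extent, and likewise those of TNFAIP3, which overlaps the noncoding WAKMAR2 (0 to 22 counts). The transcript NM_001322820 took 1618 SOD2 counts in miR-34a DDX21 KO cells and at most 252 elsewhere. PTGS2 (gene 5743, chr1:186671791-186680423) encodes the inducible cyclooxygenase that makes prostaglandin precursors. It had 63 and 18 counts in non-treated and miR-34a H1299 and 40 and 29 in DDX21 KO cells, or 1.76, 0.547, 1.49 and 0.885 CPM. It was lower in both transfected libraries, by -1.59 (-2.53 to -0.91) in H1299 and by -0.71 (-1.49 to -0.02), on counts below the minimum, in DDX21 KO cells. The 3' UTRs of PTGS2 and IL6 held 8.59 and 14 copies of the AU-rich pentamer ATTTA per kilobase, and those of CXCL1 and CXCL8 7.08 and 7.19. NFKBIA had 5.98, SOD2 2.68, TNFSF15 2.58, LIF 2.18, TNFAIP3 1.27 and IL32 0. No density over all genes was computed. The element TATTTAT was found in 9 of the 10 members, IL32 being the exception, against 30.4% of all genes. Among genes with at least 50 counts in a library the share was 36.7%. The 3' UTRs searched ran from 429 bases in IL6 to 13436 in SOD2, beside a median of 1061 over all genes. Longer ones can hold more matches, and the shares were not adjusted for length.

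The ratios to miR-34a were then compared between the lines. Of 8 members, 0 were beyond 2-fold on the high side, where 2.13% of 13964 genes were, and 2 on the low side, where 2.07% were. These 2 were TNFSF15, with a difference (DDX21 KO minus H1299) of -2.77 (-4.0 to -1.54), and LIF, with -1.32 (-1.67 to -0.97). TNFSF15 and PTGS2 entered through H1299 alone, and their DDX21 KO ratios were below the minimum. For TNFSF15 only the 158 counts in miR-34a H1299 reached 50, so its call rests on the library where it was high. NFKBIA differed by -0.92 (-1.11 to -0.73) and IL32 by -0.74 (-1.02 to -0.45), both within 2-fold with intervals below 0. TNFAIP3 at -0.02 (-0.31 to 0.27) and SOD2 at -0.05 (-0.12 to 0.03) had intervals that include no difference and stay within 2-fold. The interval of PTGS2, 0.88 (-0.10 to 1.87), was wide. In the comparison between the lines without treatment 0 of 6 members were lower, where 2.75% of genes were, and with miR-34a 0 of 7 were higher, where 3.99% were. All comparisons between the lines share libraries with the miR-34a comparisons, so their values are not independent.

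**Figure D4:**
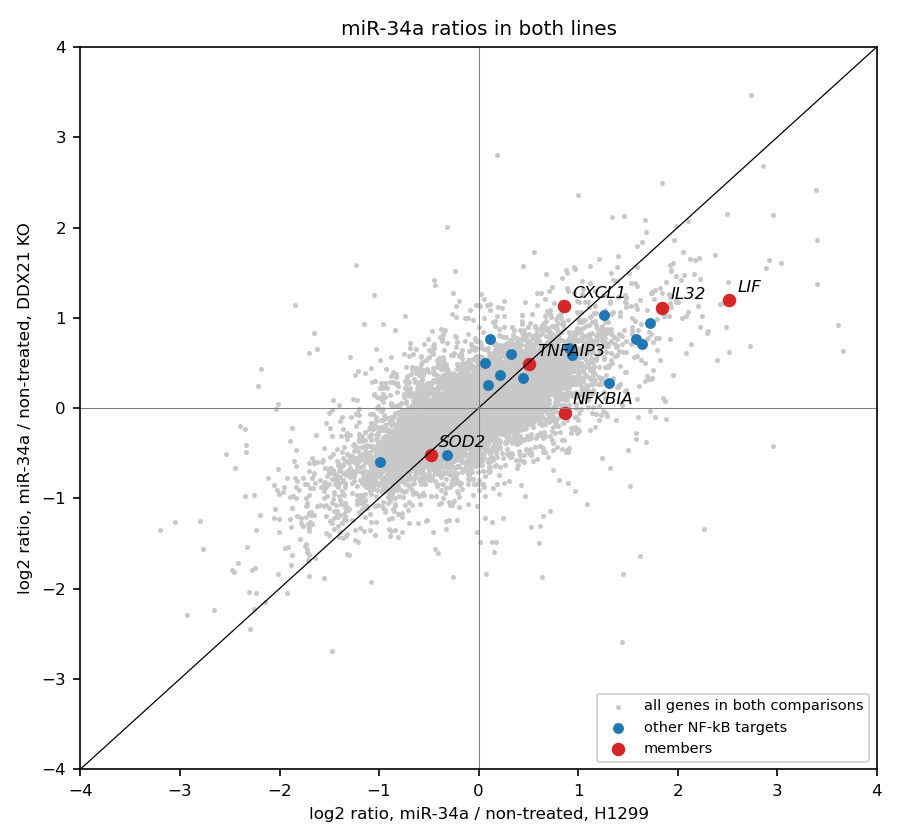
Log2 ratio of miR-34a to non-treated cells in H1299 (horizontal) and in DDX21 KO cells (vertical) for 13015 genes that entered both comparisons; red points are the 6 members among them, blue points other NF-kB targets, and the diagonal marks equal ratios. The axes end at 4 on either side, which leaves out 11 genes, none of them members. LIF, IL32 and NFKBIA lie below the diagonal, and TNFAIP3 and SOD2 lie close to it.

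The authors' deposited table of comparisons holds 908 genes, of which LIF, IL32 and TNFSF15 are members. In the authors' deposited table LIF is 5.80-fold higher with miR-34a in H1299, with a raw p of 0.00461 and an adjusted p of 1.00. TNFSF15 is 14.1-fold higher in the authors' deposited table, with a raw p of 0.000124 and an adjusted p of 0.756. IL32 is 3.62-fold higher in the authors' deposited table, with a raw p of 0.0322 and an adjusted p of 1.00. For miR-34a in DDX21 KO cells the authors' deposited table gives folds of 2.35 for LIF, 2.22 for IL32 and 1.98 for TNFSF15, each with an adjusted p of 1.00. No source used here names the test behind them.

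The wider pathway was described from lists of 150 genes in the table. With miR-34a in H1299, 10 of 102 entering list genes were higher, where 3.62% of all genes were, and 0 lower, where 4.27% were, with a median of 0.18. In DDX21 KO cells 2 of 101 were higher, near the 1.62% of all genes, and 0 lower, where 1.69% were, with a median of 0.13. Between the lines without treatment 6 of 100 list genes were higher in DDX21 KO cells (3.79% of all genes) and 2 lower (2.75%). With miR-34a 4 of 102 were higher (3.99%) and 4 lower (2.96%). The 5 NF-kB subunits were all within 2-fold in each comparison of the lists. RELB, a subunit of the alternative pathway, had ratios of 0.73 in H1299 and 0.55 in DDX21 KO cells, and RELA, the main activating subunit, had 0.28 and 0.79. REL had the lowest ratios, -0.30 and -0.08.

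Other NF-kB targets included 5 of 15 called higher in H1299 (3.62% of all genes), with a median of 0.45, and 1 of 16 in DDX21 KO cells (1.62%), with a median of 0.55. ICAM1, an adhesion molecule for leukocytes, was called in both lines: it stood at 16.5 and 39.5 CPM in H1299 and 11.3 and 23.2 CPM in DDX21 KO cells. The other 4 in H1299 were TNFRSF9 at 1.72 (1.33 to 2.2), CD83 at 1.64 (1.48 to 1.83), IER3 at 1.58 (1.40 to 1.78) and PTX3 at 1.32 (1.19 to 1.44). PTX3, a secreted pattern recognition protein, was at 20.6 and 51.5 CPM in H1299 but at 6.57 and 7.96 CPM in DDX21 KO cells. Without treatment IER3, TNFRSF9 and CD83 were called higher in DDX21 KO cells than in H1299, at 1.73, 1.16 and 1.02, and PTX3 lower at -1.64. With miR-34a CSF1, a growth factor of macrophages, was called higher at 1.56 (0.86 to 2.55) on 54 against 17 counts, and PTX3 lower at -2.68. TNFAIP8 had the lowest miR-34a ratios of the list, -0.99 and -0.60. Of the list, 17 of 32 genes did not enter in H1299, and CXCL10 had 0 counts in all 4 libraries.

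Among IKK subunits and adaptors, TRAF1, BIRC3 and TRADD were higher with miR-34a in H1299, 3 of 24 (3.62% of all genes), and 0 of 24 in DDX21 KO cells (1.62%). TRAF1, an adaptor and itself a known NF-kB target, stood at 23.7 and 79.1 CPM in H1299 and at 18.9 and 33.3 CPM in DDX21 KO cells. BIRC3, a ubiquitin ligase and also a known target, stood at 313 and 926 CPM in H1299 and at 255 and 440 CPM in DDX21 KO cells. TAB1, an activator of the kinase MAP3K7, was the 1 gene of 103 in the lists whose miR-34a ratio was higher by 2-fold in DDX21 KO cells (2.13% of all genes), by 1.05 (0.72 to 1.38). The ratio was lower by 2-fold for 2 list genes (2.07% of all genes), PTX3 at -1.04 (-1.34 to -0.74) and TNFRSF1B, a TNF receptor, at -1.01 (-1.68 to -0.35). TRAF1 and BIRC3 were called lower in DDX21 KO than in H1299 cells with miR-34a, at -1.25 and -1.07. MAP3K14, the kinase of the alternative pathway, was called lower in DDX21 KO cells without treatment, at 33.8 against 70.1 CPM, a ratio of -1.05 (-1.16 to -0.94). The other IkB proteins and brakes were all within 2-fold, 0 of 13 being called in either line, with medians of 0.10 and 0.09. Among all genes, 3.62% were called higher and 4.27% lower with miR-34a in H1299. For DDX21 KO these shares were 1.62% and 1.69%. At such shares 0 of 13 does not set this list apart from all genes.

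All 11 entering receptors had a ratio above 0 in H1299, with a median of 0.38, beside 0.00 for all genes. In DDX21 KO cells 7 of 11 were above 0. In each line 1 of 11 was called higher (3.62% of all genes in H1299 and 1.62% in DDX21 KO cells). This was IL1RAP, the partner chain of the interleukin 1 receptor. IL1RAP stood at 33.0 and 125 CPM in H1299 and at 56.7 and 133 CPM in DDX21 KO cells. Without treatment 3 of 10 receptors were higher in DDX21 KO cells (3.79% of all genes), and the same 3 of 11 were with miR-34a (3.99%). IL1R1, which binds interleukin 1, was at 3.5 CPM in H1299 and 18.6 CPM in DDX21 KO cells without treatment, a ratio of 2.39 (2.13 to 2.71). LIFR, the LIF receptor, was at 20.1 against 57.5 CPM, a ratio of 1.51 (1.39 to 1.64), and TLR3, a sensor of double-stranded RNA, was at 1.90 against 5.68 CPM. IL6ST, the chain shared by LIF and IL6, stood at 449 and 870 CPM in H1299 and at 436 and 580 CPM in DDX21 KO cells. TNFRSF25, the receptor of TNFSF15, had 2.86 to 4.38 CPM, CXCR1 had 0 counts in all libraries and CXCR2 0 to 4. None of the 10 activating ligands reached 50 counts in a library, and TNF, IL1A, IL1B and IL33 had 0 counts in each.

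Of the remaining lists, DDX58, a sensor of viral RNA, was higher in H1299 (1.08, 0.96 to 1.21). It was 1 of 6 entering sensors of double-stranded RNA, where 3.62% of all genes were higher. The superoxide and peroxide, JAK and STAT3, and AU-rich decay lists had 8 entering genes each in either line. The prostanoid list had 5 for H1299 but 3 for DDX21 KO. Among these lists 0 genes passed 2-fold with miR-34a. For H1299, 3.62% of all genes were higher and 4.27% lower. The DDX21 KO shares were 1.62% and 1.69%. With so few genes, a count of 0 does not set these lists apart from all genes. The peroxidase PRDX1 led the enzymes at 0.68 and 0.43, beside the negative ratios of SOD2. The AU-rich decay factor ZFP36 was at 0.49 and 0.75, the decay factor HNRNPD at -0.64 in H1299. STAT3, the factor downstream of LIF, was at 0.48 and 0.06, and SOCS3, its feedback inhibitor, at -0.46 and 0.10. PTGER4, a prostaglandin receptor, was at -0.87 and -0.35. PTGER3, another, was called lower in DDX21 KO than in H1299 cells with miR-34a, at -2.43 (-3.78 to -1.68) on 10 against 63 counts.

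**Figure D5:**
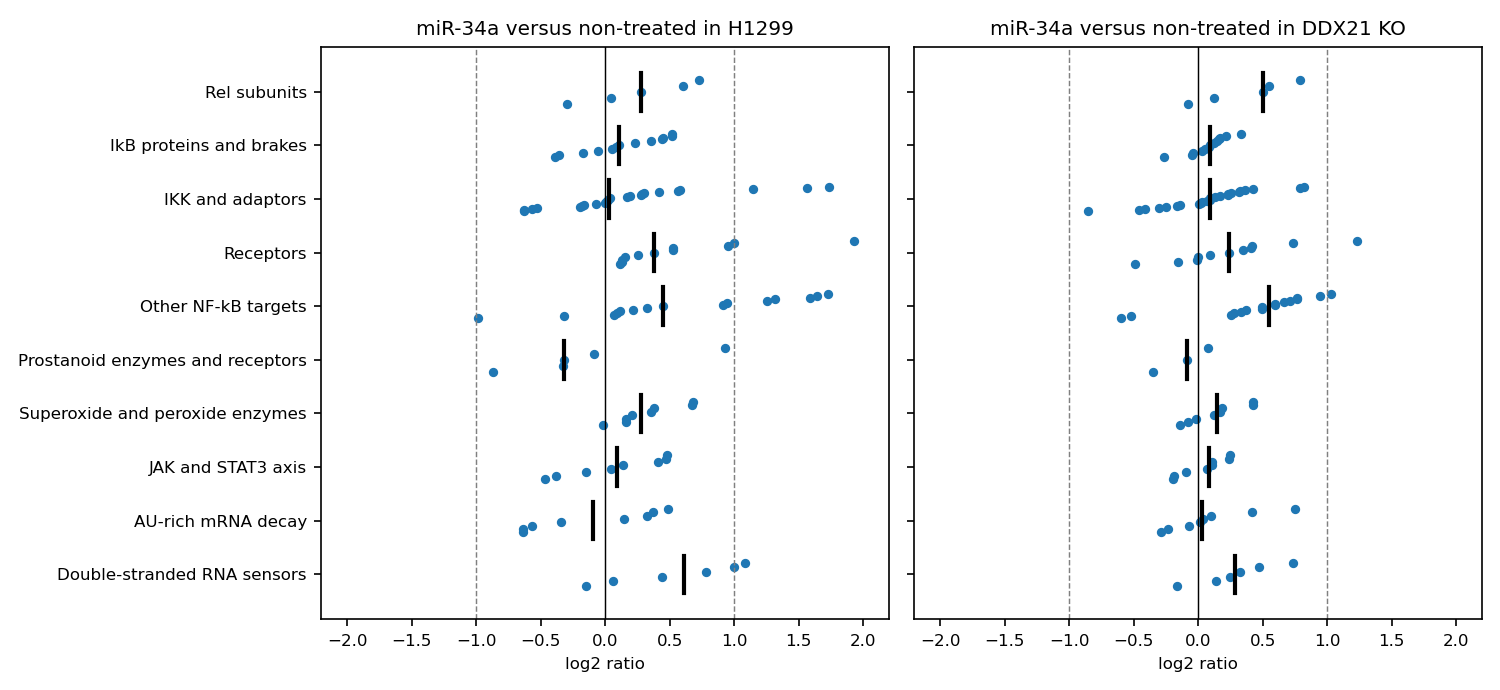
Log2 ratio of miR-34a to non-treated cells for each entering gene of 10 pathway lists in H1299 (left) and DDX21 KO cells (right); points are genes, black bars list medians and dashed lines 2-fold. TRAF1, BIRC3 and TRADD, IL1RAP, DDX58 and 5 other NF-kB targets pass 2-fold in H1299, and IL1RAP and ICAM1 in DDX21 KO cells.

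Genes with the most similar pattern were sought among 9446 protein-coding genes with at least 200 counts in every library, by the Euclidean distance of log2 CPM over the 4 libraries after centring. The closest to LIF was RHOB at a distance of 0.67, with 0 genes within 0.25. For IL32 it was DPCD at 0.19, with 1 gene within 0.25, and for NFKBIA SYTL3 at 0.12, with 45. TNFAIP3 and SOD2 had 411 and 161 genes within 0.25, of which FBXO33 at 0.03 and BEX1 at 0.08 were closest. With only 4 libraries such likeness is a description of these samples.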

How the data were processed

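Stranded libraries were made from rRNA-depleted total RNA, per the labels' protocols. TopHat2 2.0.9, Bowtie2 2.0.6 and GRCh38 are listed, per the submitters' processing notes. How reads were counted, and whether by strand, was not given in the sources used here. From the reads the authors deposited estimated counts per gene and per transcript as whole numbers, used as deposited, with FPKM and TPM; TPM was not used. The authors' deposited table gives signed fold changes and p-values, a log2 average level and normalised scores, the latter not used. Counts were scaled with TMM in edgeR 4.0.16 under R 4.3.3. Log2 ratios used a prior count of 2. Their intervals were computed by splitting the reads of both libraries (exact Clopper-Pearson), and for the difference between the lines from the Poisson variance of the 4 counts. Level intervals were exact Poisson. No p-value was computed. Gene counts may be per read or per pair, which is not stated, so intervals can be too narrow. Functions were tested on simulated counts. Coordinates are RefSeq's on GRCh38.p14 and GENCODE 29's on GRCh38. The members, lists and tests were chosen with earlier results of these data known. All 10 members were named, and of each list the genes called, and otherwise mostly those with the highest or lowest ratio, with DDX21 and the nearest genes; RELA, receptors, ligands, cluster neighbours and list genes named outside this rule were picked with their values in view. Alternatives were DESeq2 1.42.0 size factors, library totals, count minimums of 10 and 200, prior counts of 0.5 and 5, FPKM with a pseudocount of 0.1, summed transcript counts and a 1.5-fold threshold. One marker gene of the cell line is not reported here.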

Additional observations from a re-analysis of the deposited data

Results flagged for a closer look

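The miR-34a ratio of NFKBIA was above 0 in H1299, at 0.86, and close to 0 in DDX21 KO cells, at -0.05. It was flagged because the 2 estimates differ in sign. The difference (DDX21 KO minus H1299) was -0.92 on the log2 scale. This difference rests on 1 library per group and was not tested against replicate spread. The interval of the DDX21 KO ratio (-0.20 to 0.09) includes no change, so a decrease there is not shown.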

How the results depend on the processing

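No paired analysis was possible because each group has 1 library. Each alternative was applied to the counts of members called in the 5 comparisons and, except for the count minimums and the threshold, to each member's ratio. For all 10 members the summed transcript counts equalled the gene counts in all 4 libraries. That alternative could therefore change neither a ratio nor a count of members called, and its unchanged values are no check. With these included, all 210 ratios kept their call. Of them 204 stayed within the counting interval and 6, all in FPKM, did not. Of these the ratio of TNFAIP3 between the lines without treatment reversed, from -0.21 to 0.20. TNFAIP3 with miR-34a in H1299 was at 0.79 in FPKM, and TNFSF15 was at 2.39 there and at -1.86 between the lines with miR-34a. Both TNFSF15 values carry the pseudocount of 0.1. TNFSF15 stood at 0.0427 FPKM in non-treated and 0.650 FPKM in transfected H1299. Its level was 0.107 FPKM in transfected DDX21 KO cells. At levels this low the pseudocount brings these ratios nearer to no change, so they do not show that FPKM and counts differ. How far it did so, and the cause of the other changes in FPKM, was not tested. Of 90 counts of members called, 83 stayed within 1.5 times and 7 moved. With a count minimum of 200, the count called lower with miR-34a in H1299 was 0 (3.48% of all genes), as was the count lower in DDX21 KO with miR-34a (1.57%), and the count with a lower miR-34a ratio in DDX21 KO was 1 (0.649%), because PTGS2 and TNFSF15 no longer entered. With a minimum of 10, 1 member (CXCL8) was higher in DDX21 KO with miR-34a (7.16% of all genes). At 1.5-fold, 5 members were higher with miR-34a in H1299 (10.6% of all genes), 2 were lower in DDX21 KO with miR-34a (9.86%) and 4 had a lower ratio in DDX21 KO (5.26%). Depth limits CXCL8, IL6, TNFSF15, CXCL1 and PTGS2, each with fewer than 200 counts in every library. The spread between cultures is not known.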
